A study of Mus musculus with 30 samples.

Results

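The 5 aquaporin genes of the mouse heart described here are Aqp1, Aqp4, Aqp7, Aqp8 and Aqp11. They were taken by symbol from a table of 55487 gene identifiers, which holds 12 aquaporin genes. The set was chosen for the level of Aqp4 in overloaded Cpt1a knockout hearts, so every comparison that involves those hearts is given as a description. Poly(A) RNA was counted in 30 hearts taken 8 weeks after sham surgery or constriction of the transverse aorta (TAC), which makes the left ventricle pump against a raised pressure. In the floxed cohort, mice with floxed Cpt1a as controls (FF_sham and FF_TAC) and mice labelled as cardiac-specific Cpt1a knockouts (KO_sham and KO_TAC) had 4 hearts per group. In the AAV9 cohort, C57Bl/6 mice received saline (PBS_sham and PBS_TAC, 3 hearts each) or AAV9.Cpt1a, a vector in which the cardiac troponin T promoter drives Cpt1a (4 hearts each in AAV_sham and AAV_TAC). All 16 mice of the floxed cohort carry floxed Cpt1a, the Cre line is not given in the sources used here, and no group received an empty vector. The clip was 0.016 or 0.018 inch wide without a record of which mouse had which, and the ages of the mice are not given in the sources used here.

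Aquaporins are membrane proteins with a narrow pore that lets water, and in some members small solutes, cross along a gradient. Aqp1 is the classical water channel of capillary endothelium and red cells. Aqp4 is a water channel best known from brain astrocytes and also made in skeletal and heart muscle, where it is tied to the dystrophin complex. Aqp7 is an aquaglyceroporin, which passes glycerol as well as water and is known from fat, heart and kidney. Aqp8 passes water, ammonia and hydrogen peroxide, and Aqp11 is a distant member of the family found mainly on internal membranes.

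Total counts ran from 14839758 to 22070373 per library. Cpt1a, the deleted gene, lay at 37.8, 43.8, 52.6 and 45.9 CPM (counts relative to the library total, scaled by TMM) in FF_sham and at 22.4, 46.2, 20.3 and 23.6 CPM in KO_sham. The library labelled KO_sham 2 thus sat within the floxed range. It was 48.8, 20.3, 16.2 and 34.0 CPM in FF_TAC and 19.6, 11.8, 14.1 and 11.1 CPM in KO_TAC, so the libraries labelled FF_TAC 2 and FF_TAC 3 sat near the knockout range. Summed haemoglobin transcripts are given as CPM of the library total without TMM scaling. They were at most 51.1 CPM in those 3 libraries and all 4 of KO_TAC, against at least 293.9 CPM in the other 23. In the 7 haemoglobin-low libraries the summed early response genes (12 genes such as Fos and Egr1) ran from 1991 to 5063 CPM. The medians of FF_sham and KO_sham were 261 and 239 CPM. The part of this library difference in the values below was not tested, except where a fit with a haemoglobin term or with one kind of library is given. PBS_sham 3 also stood apart, with summed cardiomyocyte markers of 25160 CPM against 69470 CPM at most in that group. Whether hearts of one group came from separate litters or days is not given, so p-values measure the spread between these libraries.

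All 5 genes passed the filter on low counts in both cohorts. The other 7 aquaporin genes did not: Aqp12 had 0 counts in all 30 libraries, and Mip never exceeded 3 counts. Aqp2, Aqp6 and Aqp9 reached at most 14, 6 and 20 counts. Aqp3 and Aqp5 were above 3 counts in 1 and 2 libraries, with 98 and 92 counts in KO_TAC 1 and, for Aqp5, 67 counts in PBS_sham 2. KO_TAC 1 also held 601 CPM of Scgb1a1, the secretory protein of airway club cells, which was at most 11.3 CPM elsewhere. The part of airway tissue in those counts was not tested. Myl7, an atrial gene, was 3143 CPM in KO_TAC 1 and at most 0.750 CPM in the rest of KO_TAC. It was 601 CPM in KO_sham 2, 393 CPM in KO_sham 4 and 1105 CPM in FF_sham 2. Apart from fits with a Myl7 covariate, the part of atrial tissue in the floxed cohort was not tested.

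Set per length of exon sequence, Aqp1 was the most abundant aquaporin in each of the 8 groups. Its mean level was 137 ± 27.8 RPKM (CPM per kilobase of exon, SD, n = 4) in FF_sham, where Aqp7 had 10.1 ± 0.989, Aqp8 3.25 ± 2.40, Aqp4 0.743 ± 0.446 and Aqp11 0.206 ± 0.0428 RPKM. In that group only Aqp8 and Aqp4 overlapped among neighbours in this order. Aqp7 stood second in the 4 sham groups, and Aqp8 stood second in the 4 TAC groups. In KO_TAC, Aqp8 (7.03 ± 5.37 RPKM) lay above Aqp7 (1.30 ± 0.593 RPKM) without overlap of libraries, whereas in FF_TAC, PBS_TAC and AAV_TAC these neighbours overlapped. Aqp1 made up from 85.0% to 96.4% of the summed aquaporin RPKM of a library.

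**Figure D1:**
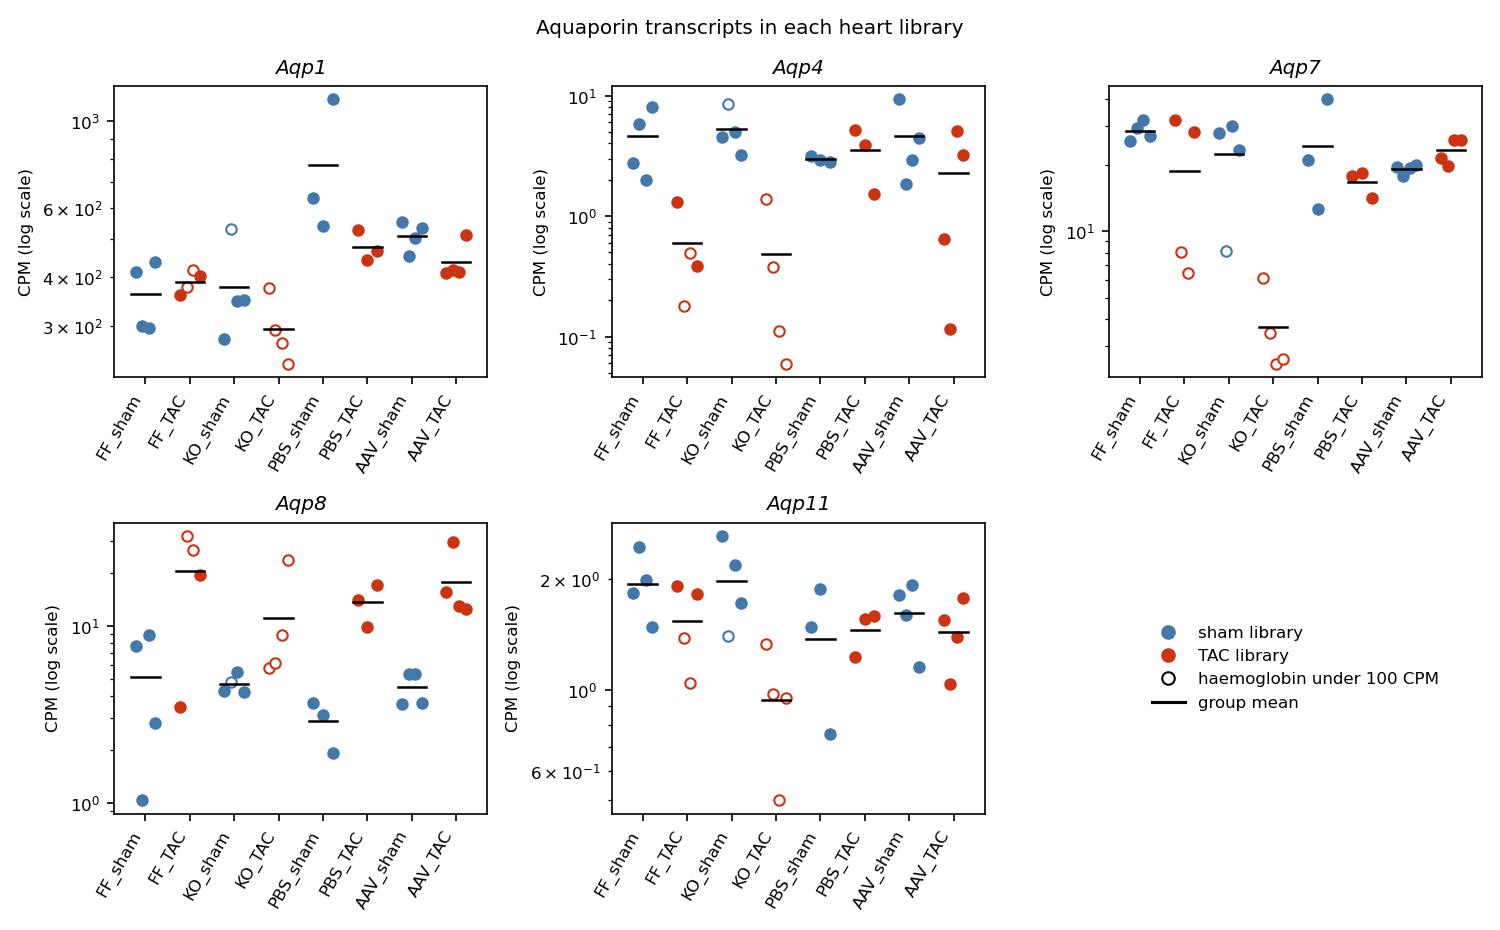
CPM on a log scale for the 5 genes in each library of the 8 groups, with sham libraries in blue, TAC libraries in red and a bar at each group's mean. Open points are the 7 libraries with haemoglobin under 100 CPM. In KO_TAC, Aqp4 lies between 0.0595 and 1.38 CPM and Aqp7 between 2.50 and 6.10 CPM.

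Aqp1 was not called by edgeR over all libraries in any comparison. The gene lies at chr6:55336432-55348555 on the plus strand of GRCm38, with 2627 bases of exon. It was 412, 300, 297 and 436 CPM in FF_sham, 359, 378, 417 and 402 CPM in FF_TAC, 279, 531, 347 and 349 CPM in KO_sham and 374, 294, 271 and 240 CPM in KO_TAC. These 4 groups overlapped throughout. Floxed TAC hearts differed from floxed sham hearts by a log2 fold change of 0.11 (SE 0.19). In KO_TAC the difference was -0.35 (SE 0.19) from KO_sham and -0.40 (SE 0.19) from FF_TAC. The latter was called with limma voom, as 38.5% of all genes were there. Across bulk tissue, fewer cells of a type and less RNA per cell cannot be told apart.

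In the AAV9 cohort, Aqp1 was 635, 540 and 1136 CPM in PBS_sham and 526, 442 and 467 CPM in PBS_TAC. It was 552, 453, 502 and 533 CPM in AAV_sham and 410, 417, 412 and 512 CPM in AAV_TAC. All 3 saline TAC hearts lay below the 3 saline sham hearts, and the log2 fold change was -0.69 (SE 0.23, edgeR adjusted p = 0.188). Without PBS_sham 3, which held the highest Aqp1 of the series, it was -0.30. Over both arms of this cohort TAC gave -0.45 (SE 0.15, edgeR adjusted p = 0.153), and -0.26 without PBS_sham 3. That library had a summed level of 12 endothelial markers of 2514 CPM, whereas the other 29 ran from 977.7 to 1517 CPM. Pecam1, an adhesion protein of endothelial junctions, was 290 CPM there and at most 230 CPM elsewhere. The part of cell makeup in the Aqp1 values was not tested.

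**Figure D2:**
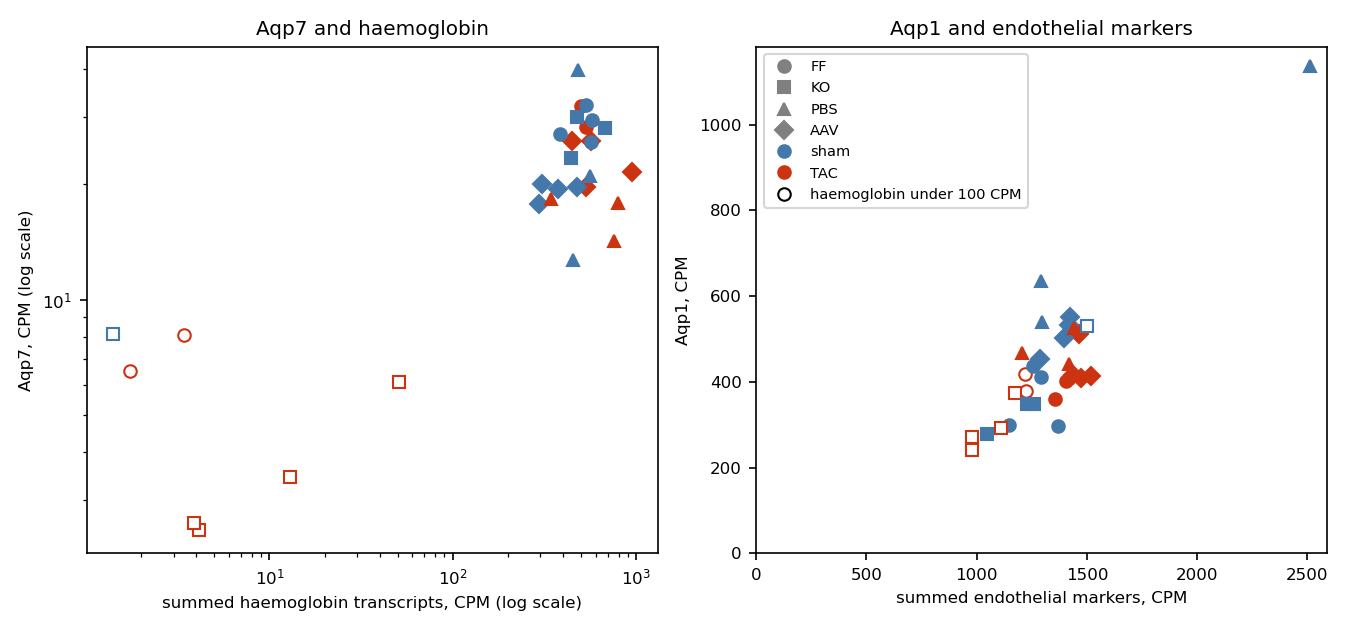
Left, Aqp7 CPM against summed haemoglobin CPM on log axes; right, Aqp1 CPM against the summed CPM of 12 endothelial markers on linear axes, with 1 point per library. Shapes give the genotype or injection, blue is sham, red is TAC and open points have haemoglobin under 100 CPM. The 7 open points lie between 2.50 and 8.14 CPM of Aqp7, below the 23 filled ones, and PBS_sham 3 stands alone at 1136 CPM of Aqp1.

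Aqp4 was low in the TAC groups of the floxed cohort, in both genotypes. It had 45, 106, 35 and 130 counts in FF_sham, or 2.75, 5.77, 1.99 and 8.01 CPM. In FF_TAC it had 24, 3, 8 and 7 counts, or 1.31, 0.181, 0.490 and 0.386 CPM. Every FF_TAC library lay below every FF_sham library, including FF_TAC 1 and FF_TAC 4, in which haemoglobin was high. The log2 fold change was -2.94 (SE 0.71, 4 hearts against 4). This did not pass edgeR's quasi-likelihood test over all genes (adjusted p = 0.328) and passed with DESeq2 (adjusted p = 0.00979). A two-sided exact permutation test gave p = 0.0286, the smallest that 4 against 4 allows, and 0.25 after Benjamini-Hochberg adjustment over the 35 such tests of the 5 genes. In a fit of only the haemoglobin-high libraries of the floxed cohort, 6 of which belong to this pair, the change was -2.43. With a haemoglobin term it was -2.97.

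In the knockouts Aqp4 had 98, 139, 95 and 62 counts in KO_sham (4.51, 8.44, 4.94 and 3.23 CPM). It had 28, 5, 2 and 1 counts in KO_TAC (1.38, 0.375, 0.111 and 0.0595 CPM). No libraries overlapped. These are the values the genes were chosen by: the log2 fold change was -3.38 (SE 0.73), and it was -3.43 with a haemoglobin term and -4.91 without KO_TAC 1. The single count in KO_TAC 4 has an exact Poisson 95% interval from 0.0253 to 5.57 counts, and the 2 counts in KO_TAC 3 one from 0.242 to 7.22, which cover counting error only. KO_TAC and FF_TAC overlapped, with a log2 difference of -0.25 (SE 0.79), and the difference of the TAC effects between genotypes was -0.44 (SE 1.005). Sham hearts of both genotypes overlapped as well (0.19, SE 0.61, edgeR adjusted p = 0.9997). The library labelled KO_sham 2, whose haemoglobin was 1.40 CPM, held the highest Aqp4 of its cohort.

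Saline TAC hearts lay on both sides of the saline sham range of Aqp4. PBS_sham had 3.12, 2.93 and 2.79 CPM of Aqp4, and PBS_TAC had 5.20, 3.91 and 1.53 CPM. In the vector groups it was 9.31, 1.84, 2.92 and 4.42 CPM in AAV_sham and 0.649, 0.115, 5.11 and 3.21 CPM in AAV_TAC. The groups overlapped in both arms. The log2 fold changes of TAC were 0.26 (SE 0.82, edgeR adjusted p = 0.857) with saline and -1.04 (SE 0.72, edgeR adjusted p = 0.868) with the vector. The difference between these TAC effects was -1.31 (SE 1.10, edgeR adjusted p = 0.724), and the difference between the cohorts was not tested. AAV_TAC 1 and AAV_TAC 2 were low and the other two AAV_TAC libraries lay within the sham range. Glial cells are another known source of Aqp4. Their markers, summed over 5 genes, ran from 10.4 to 16.1 CPM in FF_sham and from 2.70 to 13.7 CPM in FF_TAC. In the knockouts the sums ran from 9.61 to 18.3 CPM after sham and from 5.12 to 28.4 CPM after TAC. None of the 5 was at 0 in every library of a group, and their part in the Aqp4 values was not tested. Within their groups, FF_TAC 1 and KO_TAC 1 held the most Aqp4, beside 11.3 and 601 CPM of the airway gene Scgb1a1. Whether airway tissue contributed to these Aqp4 values was not tested.

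Aqp8 rose after TAC over the AAV9 cohort, while its differences in the floxed cohort did not pass the test. In the AAV9 cohort it lay at 3.67, 3.16 and 1.92 CPM in PBS_sham and at 14.0, 9.84 and 17.1 CPM in PBS_TAC. With the vector it lay at 3.62, 5.33, 5.37 and 3.69 CPM in AAV_sham and at 15.6, 29.7, 13.0 and 12.5 CPM in AAV_TAC. All 7 TAC hearts exceeded all 7 sham hearts. Over both arms, a comparison added after the data were seen, the log2 fold change was 2.11 (SE 0.24, edgeR adjusted p = 0.00218), from a mean of 3.82 to 15.96 CPM. This was the call of 1 of the 5 genes, where 0.908% of all genes tested were called. A two-sided exact permutation test within arms gave p = 0.00143, the smallest it can give, and 0.05 after adjustment over the 35 tests. Among the alternative fits it lost its call with a covariate for Myl7, the atrial myosin light chain (1.87, adjusted p = 0.0704). Myl7 ran from 0.605 to 1007 CPM in the 7 sham hearts and from 0.0585 to 642 CPM in the 7 TAC hearts. With that covariate 0 of 15745 genes were called in this comparison, against 143 without it. The part of atrial tissue in the Aqp8 values was not tested.

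**Figure D3:**
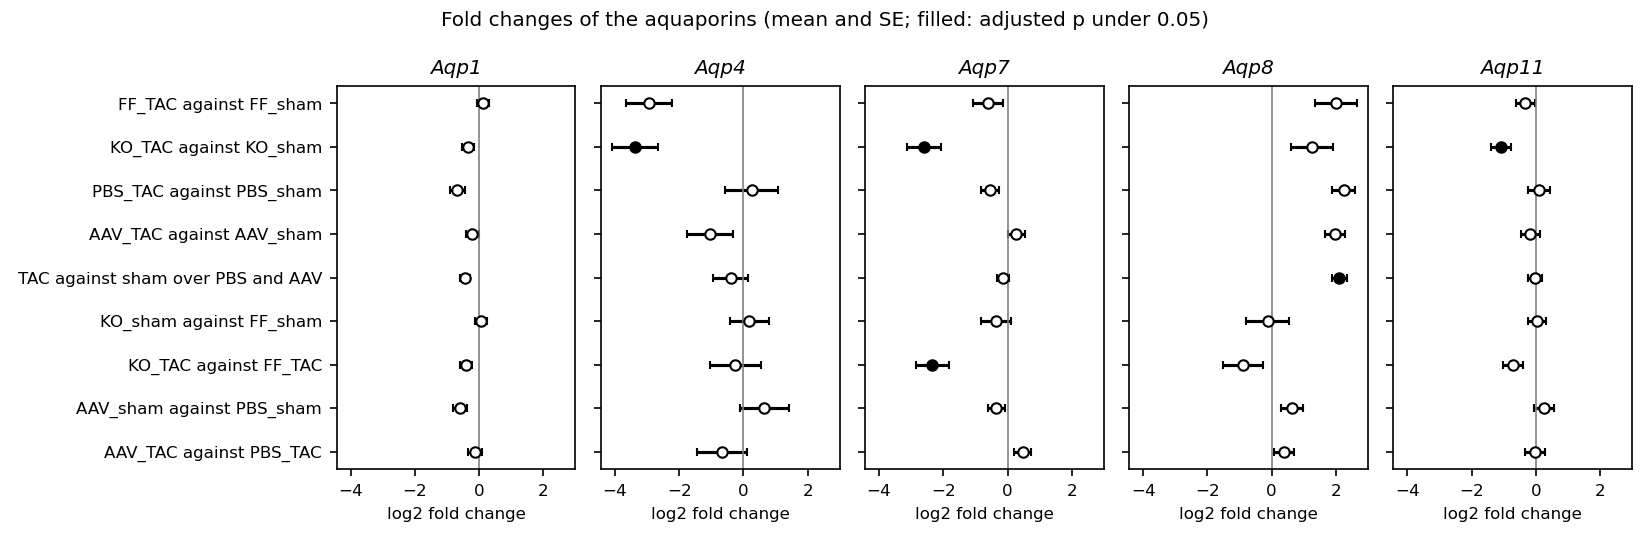
Log2 fold changes with SE (edgeR) of the 5 genes in 8 pairwise comparisons and in TAC against sham over both arms of the AAV9 cohort. Filled points have an adjusted p under 0.05 over all genes. Aqp8 lies at 1.999, 1.25, 2.24 and 1.97 in the 4 TAC comparisons, and Aqp4 below -2 in the TAC comparisons of the floxed cohort.

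Arm by arm, the log2 fold change of Aqp8 was 2.24 (SE 0.36, edgeR adjusted p = 0.0546) with saline and 1.97 (SE 0.30, edgeR adjusted p = 0.0833) with the vector. Neither passed the threshold with edgeR, and both did with DESeq2 and with limma voom. The TAC effects of the arms differed by -0.27 (SE 0.46, edgeR adjusted p = 0.831). These comparisons share their libraries with the one over both arms.

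Floxed hearts held 7.75, 1.03, 8.93 and 2.83 CPM of Aqp8 after sham and 3.50, 32.3, 26.8 and 19.5 CPM after TAC. FF_TAC 1 overlapped the sham hearts and the other 3 lay above them. The log2 fold change was 1.999 (SE 0.66, edgeR adjusted p = 0.347), and 1.17 in the haemoglobin-high libraries alone. Knockouts held 4.28, 4.80, 5.46 and 4.23 CPM after sham and 5.76, 6.15, 8.89 and 23.7 CPM after TAC. The TAC libraries lay above the sham libraries without overlap, with a change of 1.25 (SE 0.65) that was 0.56 without KO_TAC 4 and also 0.56 with a haemoglobin term. KO_TAC lay -0.88 (SE 0.63) from FF_TAC, and the groups overlapped.

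The bases before the start of Aqp8 are shown because it was the gene with a called rise, in the comparison added after the data were seen. The gene lies at chr7:123462291-123468004 on the plus strand, with 1581 bases of exon. The window, chr7:123462044-123462293 of GRCm38.p6 on the plus strand, is taken from RefSeq. Both strands were searched for 6 motifs, which do not overlap one another in the matches shown. These were CACGTG, the E-box, and CATTCC, the MCAT element. They also were TATAAA, the core promoter motif, GGGCGG, bound by Sp factors, CCAAT, bound by NF-Y, and AGATAA, bound by Gata factors. Capitals mark matches.
Aqp8: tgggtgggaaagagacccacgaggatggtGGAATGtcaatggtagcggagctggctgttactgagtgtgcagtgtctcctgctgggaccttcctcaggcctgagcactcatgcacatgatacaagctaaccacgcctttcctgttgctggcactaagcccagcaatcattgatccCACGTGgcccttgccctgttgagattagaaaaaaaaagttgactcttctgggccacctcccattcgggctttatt
The capitals are 1 CATTCC match, read as GGAATG on this strand, whose first base lies 221 bases before the start, and 1 CACGTG match that begins 75 bases before it. Of 32851 promoter windows of 250 bases, 12.6% held CATTCC and 6.02% held CACGTG. A match describes the letters only.

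Aqp7 was low in each haemoglobin-low library of the floxed cohort, whatever its group. It was 25.8, 29.4, 32.1 and 27.1 CPM in FF_sham, 32.1, 8.07, 6.49 and 28.1 CPM in FF_TAC, and 28.0, 8.14, 29.9 and 23.4 CPM in KO_sham. In KO_TAC it was 6.10, 3.45, 2.50 and 2.62 CPM. The low values of FF_TAC are those of replicates 2 and 3 and that of KO_sham is replicate 2, the haemoglobin-low libraries of those groups. Over the floxed cohort the 7 haemoglobin-low libraries ran from 2.50 to 8.14 CPM and the 9 others from 23.4 to 32.1 CPM, with no overlap. The share of all genes with such a split is not given here. Over all genes, a haemoglobin term took the edgeR calls of KO_TAC against KO_sham from 25.8% to 1.75%. KO_TAC has no haemoglobin-high library, so in that group the library state and the treatment cannot be told apart.

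The log2 fold change of Aqp7 in KO_TAC was -2.60 (SE 0.52) from KO_sham and -2.34 (SE 0.52) from FF_TAC, both without overlap of libraries. With a haemoglobin term these were -0.999 and -1.05, and among haemoglobin-low libraries alone -1.16 and -1.01. The first of these last 2 rests on a single KO_sham library, assumed to vary like the other groups. In floxed hearts the TAC change was -0.61 (SE 0.47, edgeR adjusted p = 0.621), and 0.08 in the haemoglobin-high libraries. Knockout sham hearts differed from floxed sham hearts by -0.35 (SE 0.47, edgeR adjusted p = 0.9997). The difference of the TAC effects between genotypes was -1.99 (SE 0.69). Adipocyte markers, which can bring Aqp7 from fat, summed over 8 genes to between 171 and 253 CPM in KO_sham and between 117 and 198 CPM in KO_TAC, and their part was not tested. Lep, the leptin gene, was at 0 in FF_TAC, KO_TAC and AAV_TAC.

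All 14 libraries of the AAV9 cohort were haemoglobin-high. There Aqp7 was 21.1, 12.7 and 39.8 CPM in PBS_sham, 17.9, 18.3 and 14.2 CPM in PBS_TAC, 19.6, 17.8, 19.4 and 20.0 CPM in AAV_sham and 21.6, 19.7, 26.0 and 26.0 CPM in AAV_TAC. The highest value was again that of PBS_sham 3. The log2 fold change of Aqp7 after TAC was -0.55 (SE 0.29, edgeR adjusted p = 0.312) with saline, which became -0.01 without PBS_sham 3, and 0.28 (SE 0.25, edgeR adjusted p = 0.932) with the vector. AAV_TAC lay above PBS_TAC without overlap, by 0.47 (SE 0.27, edgeR adjusted p = 1). The TAC effects of vector and saline differed by 0.83 (SE 0.38, edgeR adjusted p = 0.688).

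Aqp11 was the lowest of the 5 per length in sham hearts and was called by edgeR over all libraries in KO_TAC against KO_sham alone. Limma voom called it also in KO_TAC against FF_TAC and in the difference of TAC effects between genotypes. It was 1.83, 2.45, 1.99 and 1.48 CPM in FF_sham, 1.92, 1.39, 1.04 and 1.82 CPM in FF_TAC, 2.62, 1.40, 2.18 and 1.72 CPM in KO_sham and 1.33, 0.975, 0.4998 and 0.952 CPM in KO_TAC. KO_TAC lay below KO_sham without overlap, by -1.07 (SE 0.31), and overlapped FF_TAC (-0.71, SE 0.31). With a haemoglobin term the first difference was -0.57. In the floxed cohort the 7 haemoglobin-low libraries ran from 0.4998 to 1.40 CPM and the 9 others from 1.48 to 2.62 CPM, without overlap. The libraries on either side of that gap, KO_sham 2 and FF_sham 4, held 23 and 24 counts, so counting error can cover it. As for Aqp7, the share of all genes with such a split is not given here. In the AAV9 cohort all Aqp11 values lay between 0.758 and 1.93 CPM, and its TAC change over both arms was -0.03 (SE 0.22, edgeR adjusted p = 0.944).

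The windows before the starts of Aqp7 and Aqp11 are shown together because both genes had their lowest floxed-cohort values in the same 7 libraries. For Aqp11 the margin was within counting error. Aqp7 lies at chr4:41033074-41048139 on the minus strand with 2828 bases of exon, and Aqp11 at chr7:97724006-97738289 on the minus strand with 9418. The RefSeq windows are chr4:41048137-41048386 and chr7:97738248-97738497 of GRCm38.p6, printed 5′ to 3′ on the minus strand, with matches to the same 6 motifs in capitals.
Aqp7: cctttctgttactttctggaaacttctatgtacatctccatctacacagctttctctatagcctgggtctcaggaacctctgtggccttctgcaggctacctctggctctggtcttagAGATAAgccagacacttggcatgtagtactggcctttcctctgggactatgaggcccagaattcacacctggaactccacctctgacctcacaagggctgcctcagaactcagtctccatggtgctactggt
Aqp11: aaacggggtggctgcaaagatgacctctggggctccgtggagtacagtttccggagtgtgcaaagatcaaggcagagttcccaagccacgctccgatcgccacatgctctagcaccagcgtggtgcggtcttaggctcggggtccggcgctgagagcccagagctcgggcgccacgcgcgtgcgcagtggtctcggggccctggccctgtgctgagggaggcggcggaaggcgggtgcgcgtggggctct
The Aqp7 window held 1 AGATAA match, beginning 132 bases before the start, and 9.99% of all windows hold one. RefSeq gives Aqp7 a second start, whose window held none of the 6 motifs. The Aqp11 window held none of them either, and with 67.2% G and C it was richer in these bases than the median window (52.4%), while the Aqp7 window had 50.8%. The windows thus shared no match, which says nothing about the factors that bind there.

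Counted over the 5 genes, the calls were as follows, with the share or number of all tested genes called beside each. In FF_TAC against FF_sham edgeR called 0 of 5 (0% of all genes), and 2 had an unadjusted p under 0.05 (11.1% of all genes). DESeq2 called 1 there (166 of 32493 genes) and limma voom 0 (0% of all genes). In KO_sham against FF_sham edgeR called 0 of 5 (0% of all genes), and 0 had an unadjusted p under 0.05 (5.22% of all genes). DESeq2 and limma voom called 0 there too, beside 14 of 32493 genes and 0.192% of all genes. The overloaded knockouts, whose Aqp4 level the genes were chosen by, gave 3 of 5 lower against KO_sham, beside 25.8% of all genes. Against FF_TAC they gave 1 of 5, Aqp7, beside 14.3% of all genes. With a haemoglobin term the first count was 0, beside 1.75% of all genes, and the second remained at 1, beside 7.23% of all genes.

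The difference of the TAC effects between genotypes gave 0 of 5 calls with edgeR, where 0.0449% of all genes were called. There 1 gene had an unadjusted p under 0.05 (13.1% of all genes). DESeq2 called 0 (364 of 32493 genes), and limma voom called 2, Aqp7 and Aqp11, beside 18.8% of all genes. Saline TAC against saline sham gave 0 of 5 (0.0318% of all genes) and 2 genes with an unadjusted p under 0.05 (18.5% of all genes). DESeq2 (363 of 31257 genes) and limma voom (1.60% of all genes) called 1 each. Vector TAC against vector sham gave 0 of 5 (0.00635% of all genes) and 1 gene with an unadjusted p under 0.05 (7.05% of all genes). Here DESeq2 (96 of 31257 genes) and limma voom (2.33% of all genes) called 1 each.

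No aquaporin was called between vector and saline. AAV_sham against PBS_sham gave 0 of 5 with edgeR (0.0127% of all genes), DESeq2 (329 of 31257 genes) and limma voom (0.445% of all genes). There 1 gene had an unadjusted edgeR p under 0.05 (20.7% of all genes). That 1 gene was Aqp1 (-0.59, SE 0.21, edgeR adjusted p = 0.179), which became -0.21 without PBS_sham 3. AAV_TAC against PBS_TAC gave 0 of 5 with edgeR (0.0381% of all genes) and 0 by unadjusted p (3.19% of all genes). DESeq2 (36 of 31257 genes) and limma voom (0.616% of all genes) called 0 as well. The difference of the TAC effects between vector and saline gave 0 of 5 (0.00635% of all genes). There 1 had an unadjusted edgeR p under 0.05 (6.95% of all genes). For this difference DESeq2 (16 of 31257 genes) and limma voom (0.0826% of all genes) called 0.

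Over the 30 libraries together, the deviations of Aqp8 and Aqp4 from their group means were negatively related, though not in each group. The deviations of log2 CPM had a Pearson r of -0.64 and a Spearman rho of -0.72. Among the 10 pairs of the 5 genes the next were Aqp7 and Aqp8 (r = -0.49, rho = -0.51) and Aqp1 and Aqp11 (r = -0.46, rho = -0.36). The points share each library's depth and tissue makeup. FF_TAC 1 shows the pattern, with the highest Aqp4 (1.31 CPM) and the lowest Aqp8 (3.50 CPM) of its group. AAV_TAC 2 is its reverse, with 0.115 CPM of Aqp4 and 29.7 CPM of Aqp8. PBS_sham does not show it: both genes were highest in PBS_sham 1 and lowest in PBS_sham 3.

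**Figure D4:**
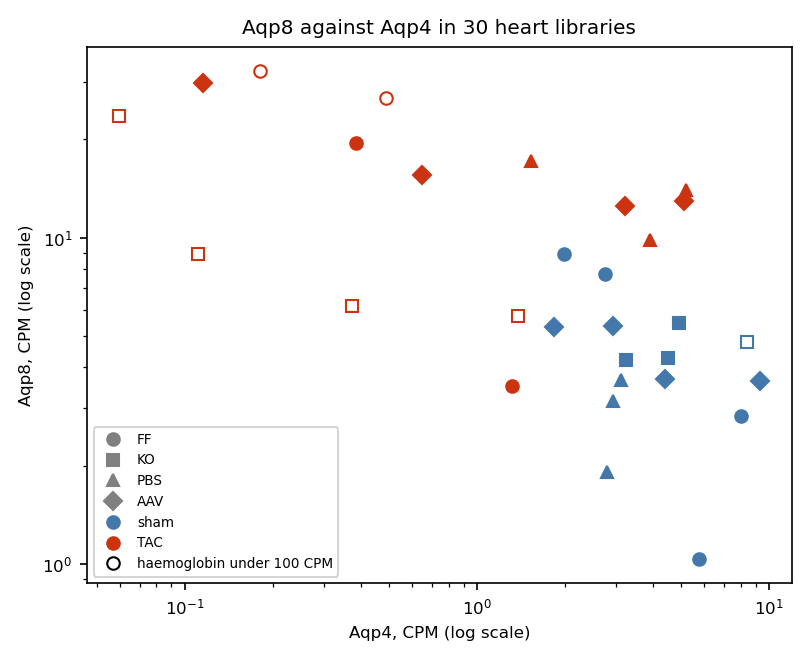
Aqp8 CPM against Aqp4 CPM on log axes, with 1 point per library, shapes for genotype or injection, blue for sham, red for TAC and open points for haemoglobin under 100 CPM. The 4 libraries with the highest Aqp8 (23.7 to 32.3 CPM) all hold under 0.5 CPM of Aqp4.

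By the same measure the genes most like each aquaporin were named among 15279 genes that passed the filter in both cohorts, as a description over 30 libraries. Aqp4 was nearest to Cox6b2, a cytochrome c oxidase subunit (r = 0.83, rho = 0.79), Tmprss13, a membrane serine protease (r = 0.83, rho = 0.86), and Acsm5, a mitochondrial medium-chain acyl-CoA synthetase (r = 0.82, rho = 0.81). Aqp8 was nearest to Gnb3, a G protein beta subunit (r = 0.89, rho = 0.82), Gm31678 (r = 0.88, rho = 0.82) and Me2, the mitochondrial malic enzyme (r = 0.85, rho = 0.76). Aqp7 was nearest to Zfp629, a zinc finger gene (r = 0.91, rho = 0.91), Crhr2, a receptor of urocortins (r = 0.90, rho = 0.92), and Gm37090 (r = 0.90, rho = 0.83). In the 23 haemoglobin-high libraries alone the lowest r of these 9 was 0.82.

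Aqp1 was nearest to Dnah17, an axonemal dynein heavy chain (r = 0.84, rho = 0.69), Ablim3, an actin-binding LIM protein (r = 0.81, rho = 0.73), and Piwil2, a Piwi family gene (r = 0.80, rho = 0.76). Aqp11 was nearest to Nudt10, a nudix hydrolase (r = 0.76, rho = 0.79), Shld2, a shieldin subunit (r = 0.75, rho = 0.67), and Ranbp6, a Ran-binding importin relative (r = 0.74, rho = 0.76). In the haemoglobin-high libraries Ranbp6 had an r of 0.64, and the other 5 ranged from 0.79 to 0.89.

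The 3 lists of genes around the aquaporins below were followed in the same fits. Of 13 genes of the dystrophin-associated complex, which anchors Aqp4 in muscle, all were tested, and 2 rose and 0 fell in KO_TAC against KO_sham (median log2 fold change -0.06, all genes 0.02). These were 15.4% of the list, beside 25.8% of all genes. Sgcd, delta-sarcoglycan, rose from 5.89 ± 1.02 to 10.8 ± 4.26 CPM (SD, n = 4), a log2 fold change of 0.87 (SE 0.25). Against FF_TAC, 0 rose and 1 fell, or 7.69% beside 14.3% of all genes (median -0.05, all genes 0.04): Dmd, dystrophin, was 69.5 ± 3.28 CPM in FF_TAC against 35.3 ± 5.42 CPM in KO_TAC (-0.98, SE 0.24). With the haemoglobin term 0 of the 13 were called against KO_sham, beside 1.75% of all genes. Against FF_TAC 1 was called, Dmd (-1.27, SE 0.24), beside 7.23% of all genes. In the other 9 comparisons edgeR called none, with 0 to 3 of the 13 at an unadjusted p under 0.05. There DESeq2 called 1, Dmd, in PBS_TAC against PBS_sham, and limma voom called Dmd in that comparison and over both arms and Sspn, sarcospan, in the difference of TAC effects between genotypes.

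The list of glycerol release and use, the pathway beside Aqp7, has 11 genes, from the lipases Pnpla2 and Lipe to the glycerol 3-phosphate dehydrogenases. All 11 were tested, and none was called by edgeR in any of the 11 comparisons, with 0 to 3 of them at an unadjusted p under 0.05. DESeq2 called 1, the lipase Lipe, lower in KO_TAC against KO_sham, where it called 4774 of 32493 genes. Limma voom called 4 genes in each of the comparisons of KO_TAC with KO_sham and with FF_TAC, beside 53.4% and 38.5% of all genes, and 2 in the difference of TAC effects between genotypes, beside 18.8%. The median of the list's log2 fold changes ran from -0.19 to 0.23 over the comparisons.

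Of 20 genes of cell volume regulation, 19 were tested. In KO_TAC against KO_sham 4 rose and 1 fell (median 0.09, all genes 0.02), or 26.3% of the list beside 25.8% of all genes. Slc5a3, the cotransporter of sodium and myo-inositol, rose from 4.50 ± 2.83 to 13.9 ± 6.69 CPM (1.64, SE 0.46). Trpv4, a cation channel opened by cell swelling, rose from 6.30 ± 0.976 to 13.9 ± 6.62 CPM (1.14, SE 0.28).

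Against FF_TAC 1 gene of this list rose and 1 fell, or 10.5% beside 14.3% of all genes (median -0.02, all genes 0.04), namely Slc5a3 (2.06, SE 0.47) and Akr1b3, aldose reductase (-0.48, SE 0.12). In the AAV9 cohort Slc5a3 was lower after TAC: over both arms TAC changed it by -1.37 (SE 0.25, edgeR adjusted p = 0.0293). It was the only call among the 19 there, or 5.26% beside 0.908% of all genes (median -0.04, all genes -0.01). That comparison was added after the data were seen, and with the Myl7 covariate 0 of all genes were called in it. The difference between the cohorts was not tested. With the haemoglobin term 0 of the 19 were called in KO_TAC against KO_sham, beside 1.75% of all genes. Against FF_TAC 1 was called, Akr1b3 (-0.50, SE 0.13), beside 7.23% of all genes. In the other 8 comparisons edgeR called none of the 19, with 0 to 7 at an unadjusted p under 0.05. There DESeq2 called Slc5a3 in PBS_TAC against PBS_sham and Trpv4 in AAV_sham against PBS_sham. Limma voom called Slc5a3 in the first of these, Slc12a4 in AAV_TAC against PBS_TAC, and 2 genes, Slc5a3 among them, in the difference of TAC effects between genotypes.

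Against KO_sham, markers of cell types and tissue states were called in the overloaded knockouts about as often as all genes. Of 80 tested genes on 12 such lists, 6 rose and 13 fell in KO_TAC against KO_sham, 23.8% in all, beside 25.8% of all genes. The falls were led, list by list, by Kdr (-1.30, SE 0.24) and Egfl7 (-0.88, SE 0.27) among 5 of 12 endothelial genes, Hba-a2 (-4.96, SE 1.504) and Alas2 (-4.70, SE 1.43) among red cell genes, Pln (-0.65, SE 0.13) and Myh6 (-0.59, SE 0.17) among cardiomyocyte genes and Kcnj8 (-1.02, SE 0.22) among mural cell genes. The rises were Nppa (3.66, SE 1.11) on the atrial list, Ier3 (2.06, SE 0.55) among early response genes, Tnnt3 (1.46, SE 0.28) on the fast skeletal muscle list, Col1a1 (0.80, SE 0.20) and Dcn (0.76, SE 0.15) among fibroblast genes, and Actn2 (0.40, SE 0.12) among cardiomyocyte genes. The 8 fast skeletal muscle genes summed to between 4.10 and 14.6 CPM in KO_TAC, where KO_TAC 1 was the highest of the 30 libraries, and to between 3.44 and 5.25 CPM in KO_sham. Myh4, the fast myosin on that list, was at 0 in every group except FF_sham.

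Against FF_TAC, 10 of the 80 rose and 8 fell, 22.5% beside 14.3% of all genes. The same rule named Kdr (-1.35, SE 0.24), Cdh5 (-0.69, SE 0.18) and Vwf (1.04, SE 0.33) of the endothelial list, Nppa (4.73, SE 1.17), Tnnt3 (1.71, SE 0.29), Col1a1 (1.03, SE 0.20), Dcn (0.86, SE 0.15), Ptprc (1.02, SE 0.30) and C1qb (0.89, SE 0.19) of the macrophage list, Pln (-0.51, SE 0.13), Myh6 (-0.54, SE 0.17), Kcnj8 (-0.99, SE 0.22) and Rgs5 (-0.49, SE 0.15). The part of these cell types in the aquaporin values was not tested. With the haemoglobin term 1 marker rose and 0 fell in KO_TAC against KO_sham, namely Col1a1 (1.07, SE 0.26), beside 1.75% of all genes. Against FF_TAC 9 rose and 4 fell, beside 7.23% of all genes. In the other 9 comparisons edgeR called none of the marker genes, with 8 to 30 at an unadjusted p under 0.05, while DESeq2 called at most 7 and limma voom at most 11, the latter over both arms of the AAV9 cohort, where it called 7.74% of all genes.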

How the data were processed

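The authors deposited raw counts per gene and library. Per the submitters' processing notes, HISAT2 2.1.0, featureCounts and Subread 1.5.1 were used with GRCm38; the strand setting is not given in the sources used here. Symbols and exon lengths come from GENCODE M21. Groups follow the genotype and treatment labels, also for KO_TAC, whose titles name sham as well. The members and gene lists were chosen with earlier results of these data known, and the airway genes after the counts were seen. Each cohort was fitted with edgeR 4.0.16 in R 4.3.3 (TMM, filterByExpr, 1 mean per group, quasi-likelihood F test), with Benjamini-Hochberg adjustment over 15596 (floxed) or 15745 (AAV9) genes and calls under 0.05. CPM and RPKM were computed per cohort from these counts, except haemoglobin CPM, which used library totals without TMM. The comparison over both arms of the AAV9 cohort was added after the data were seen. Named list genes are, per comparison and list, the 2 called genes with the largest rise and the 2 with the largest fall; some of these are not reported here. Likeness used log2 CPM with a prior count of 2. The test was checked on simulated counts, and no 2 libraries of a group were duplicates (chi-square per degree of freedom at least 6.8). Alternatives used DESeq2 1.42.0, limma 3.58.1 voom with weights, RLE factors, other filters, a replicate block, other sets of libraries, and Myl7 or haemoglobin as a term. Intervals cover counting error only.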

Additional observations from a re-analysis of the deposited data

Results flagged for a closer look

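Among the 30 groups of 4 libraries tested, 6 groups for each of the 5 genes, Aqp1 in AAV_TAC 4 stood apart at 512.4 CPM, while the other 3 libraries of the group lay at 410, 417 and 412 CPM. Its gap to the nearest was larger than Dixon's limit allows for 4 values. Chance flags about 1 in 20 such groups.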

How the results depend on the processing

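Direction and side of the threshold were kept by 482 of 520 fold changes of single genes with 1 library left out and by 460 of 502 under the other settings. DESeq2 called 1 gene, Aqp4, in FF_TAC against FF_sham. The 3 calls of KO_TAC against KO_sham became 1 with a mean of at least 5 CPM, which tested only 3 of the genes. There 3447 of 10510 genes were called. The 3 calls became 0 with a haemoglobin term, beside 1.75% of all genes. Haemoglobin-low libraries alone include a single KO_sham library, so no calls are given from that fit. With 1 library left out between 2 and 4 were called. Without KO_TAC 1 there were 4, with Aqp1 called too (-0.497). That fit called 6440 of 15802 genes, against 4031 of 15596 with all libraries. Of the 3, Aqp11 also lost its call with only the groups compared in the fit and without KO_sham 1, KO_sham 3 or KO_TAC 3. KO_TAC against FF_TAC gave 3 calls, Aqp1, Aqp7 and Aqp11, with limma voom, beside 38.5% of all genes. It gave 0 with only the groups compared, where 557 of 14696 genes were called. With 1 library left out KO_TAC against FF_TAC gave between 1 and 3. It gave 3 without KO_TAC 1, where 3845 of 15802 genes were called, against 2235 of 15596 with all libraries. The interaction of knockout and TAC gave 2 with limma voom, beside 18.8% of all genes. PBS_TAC against PBS_sham gave 1, Aqp8, with DESeq2, limma voom, no filter or a mean of at least 5 CPM. With 1 library left out it gave between 0 and 1. It gave 1 without PBS_sham 1, where 1796 of 16209 genes were called, or PBS_sham 3, where 81 of 15901 were. AAV_TAC against AAV_sham gave 1, Aqp8, with DESeq2, limma voom, no filter or only the groups compared. TAC against sham over PBS and AAV gave 0 with the Myl7 covariate. Where no cause is named, the cause was not tested.

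Changes of sign were found only in fold changes that passed no threshold. In FF_TAC against FF_sham the haemoglobin term gave -0.0595 for Aqp1 and 0.0138 for Aqp7, and haemoglobin-high libraries alone gave 0.0765 for Aqp7. In KO_sham against FF_sham, Aqp1 was -0.0700 with limma voom, -0.0534 with the haemoglobin term and -0.14 in haemoglobin-high libraries, which gave -0.12 for Aqp4. There Aqp8 was 0.13 with limma voom and 0.067 with the Myl7 covariate. With haemoglobin-low libraries Aqp4 was 0.52 in KO_TAC against FF_TAC. Limma voom gave 0.26 for Aqp7 and -0.34 for Aqp11 in PBS_TAC against PBS_sham, 0.40 and -0.13 in AAV_sham against PBS_sham, 0.28 for Aqp7 over PBS and AAV, 0.12 for Aqp11 in AAV_TAC against PBS_TAC and 0.24 for Aqp11 in the interaction of vector and TAC. The Myl7 covariate gave 0.0151 and 0.0903 for Aqp11 in AAV_TAC against PBS_TAC and over PBS and AAV.

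With 1 library left out, the fold changes in KO_sham against FF_sham ran from -0.15 to 0.18 for Aqp1, from -0.13 to 0.58 for Aqp4, from -0.48 to 0.28 for Aqp8 and from -0.13 to 0.17 for Aqp11. Those of Aqp4 ran from -1.80 to 0.496 in KO_TAC against FF_TAC, from -1.98 to 0.31 in the interaction of knockout and TAC and from -0.11 to 0.63 in PBS_TAC against PBS_sham. Aqp7 ran from -0.66 to 0.19 in AAV_sham against PBS_sham and from -0.29 to 0.14 over PBS and AAV. For Aqp11 the ranges were -0.20 to 0.41 in PBS_TAC against PBS_sham, -0.0500 to 0.56 in AAV_sham against PBS_sham, -0.14 to 0.11 in AAV_TAC against PBS_TAC, -0.19 to 0.12 over PBS and AAV and -0.58 to 0.0324 in the interaction of vector and TAC.

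A replicate block changed no count of called aquaporins: 3 in KO_TAC against KO_sham, 1 in KO_TAC against FF_TAC, and 1 over PBS and AAV, where Aqp8 was 2.103 (edgeR adjusted p = 0.0189). Libraries that share a number correlated in their deviations by -0.41 to 0.45, so the numbers were not taken as pairs. Over all genes the settings called between 1 and 8336 in KO_TAC against KO_sham, 0 and 6002 in KO_TAC against FF_TAC, and 0 and 1219 over PBS and AAV. Depth limits Aqp4 most, with 1 to 8 counts in 7 TAC libraries.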
